A study of Mus musculus with 2 samples.

Results

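The genes described here encode the collagens, laminins, nidogens, perlecan and fibronectin of the extracellular matrix, and the integrin chains that bind cells to it. They were chosen by symbol: collagen alpha chains (Col), laminin chains (Lama, Lamb, Lamc) and integrin chains (Itga, Itgb), 1 integrin chain apart that is not analysed here, plus Nid1, Nid2, Hspg2 and Fn1. The choice gave 84 genes of 55536 annotated ones, made up of 44 collagens, 25 integrin chains and 15 laminins and other matrix proteins. Total RNA had been profiled in the hippocampus, which the labels call a layer of that structure, of B6CASTF1/J mice, F1 hybrids, all male and aged 25 days. All samples form 1 group of 2 biological replicates with no treatment and no genetic alteration named, so no condition was compared and no p-value is given. The replicates have separate tissue identifiers but 1 donor identifier, so whether they are separate animals is not settled and their spread may be technical.

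Collagens are trimers wound from alpha chains. Most are secreted, and a few are transmembrane. Fibrillar collagens form fibres, while type IV collagen forms the sheet of the basement membrane together with laminins, nidogens and perlecan. Laminins are cross-shaped trimers of an alpha, a beta and a gamma chain. Integrins are dimers of an alpha and a beta chain in the cell membrane, and the pairing sets which matrix protein a cell can hold. In the brain the basement membrane lies mainly around blood vessels and under the meninges, and the matrix between neurons is poor in fibrillar collagen.

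Annotated genes received 30635891 expected counts in replicate 1 and 35713471 in replicate 2; an expected count is an estimate that shares out reads matching several features. Levels are in transcripts-per-million (TPM), a scale per length, so that genes can be compared with each other. Values are given for replicate 1 and then replicate 2, and as mean ± SD with n = 2. Markers of hippocampal field neurons (8 of 8) and of neurons in general (6 of 6) had a mean TPM of at least 10, beside 36.8% of protein-coding genes. Markers of other brain regions were not checked, so these counts do not tell the hippocampus from other regions. Of 8 blood leukocyte markers 1 reached 1 TPM, with Cd8a and Ly6g at 0 in both libraries, and none of 5 platelet markers did. All 5 red cell markers did, led by Hba-a1 at 247 and 403 TPM, so RNA of blood was present. Of 7 choroid plexus markers 2 did, led by Ttr at 47.9 and 61.0 TPM. Positions refer to mm10.

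Of the 84 genes, 51 had a mean TPM of at least 1, a share of 60.7% beside 58.9% of 22028 protein-coding genes. At the higher level of 10 TPM the share was 14 genes or 16.7%, beside 36.8% of protein-coding genes. The median level was 1.68 TPM against 3.42 TPM over protein-coding genes. The share was thus near that of coding genes at the lower level and below it at the higher one; the difference was not tested. Their TPM summed to 428 in replicate 1 and 386 in replicate 2. Collagens held 41.9 ± 1.47% of that sum, integrins 35.7 ± 1.08%, and laminins with nidogens, perlecan and fibronectin 22.4 ± 0.40%. In bulk tissue, fewer cells of a type and less RNA per cell cannot be told apart, and no level below is a level in a cell type.

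**Figure D1:**
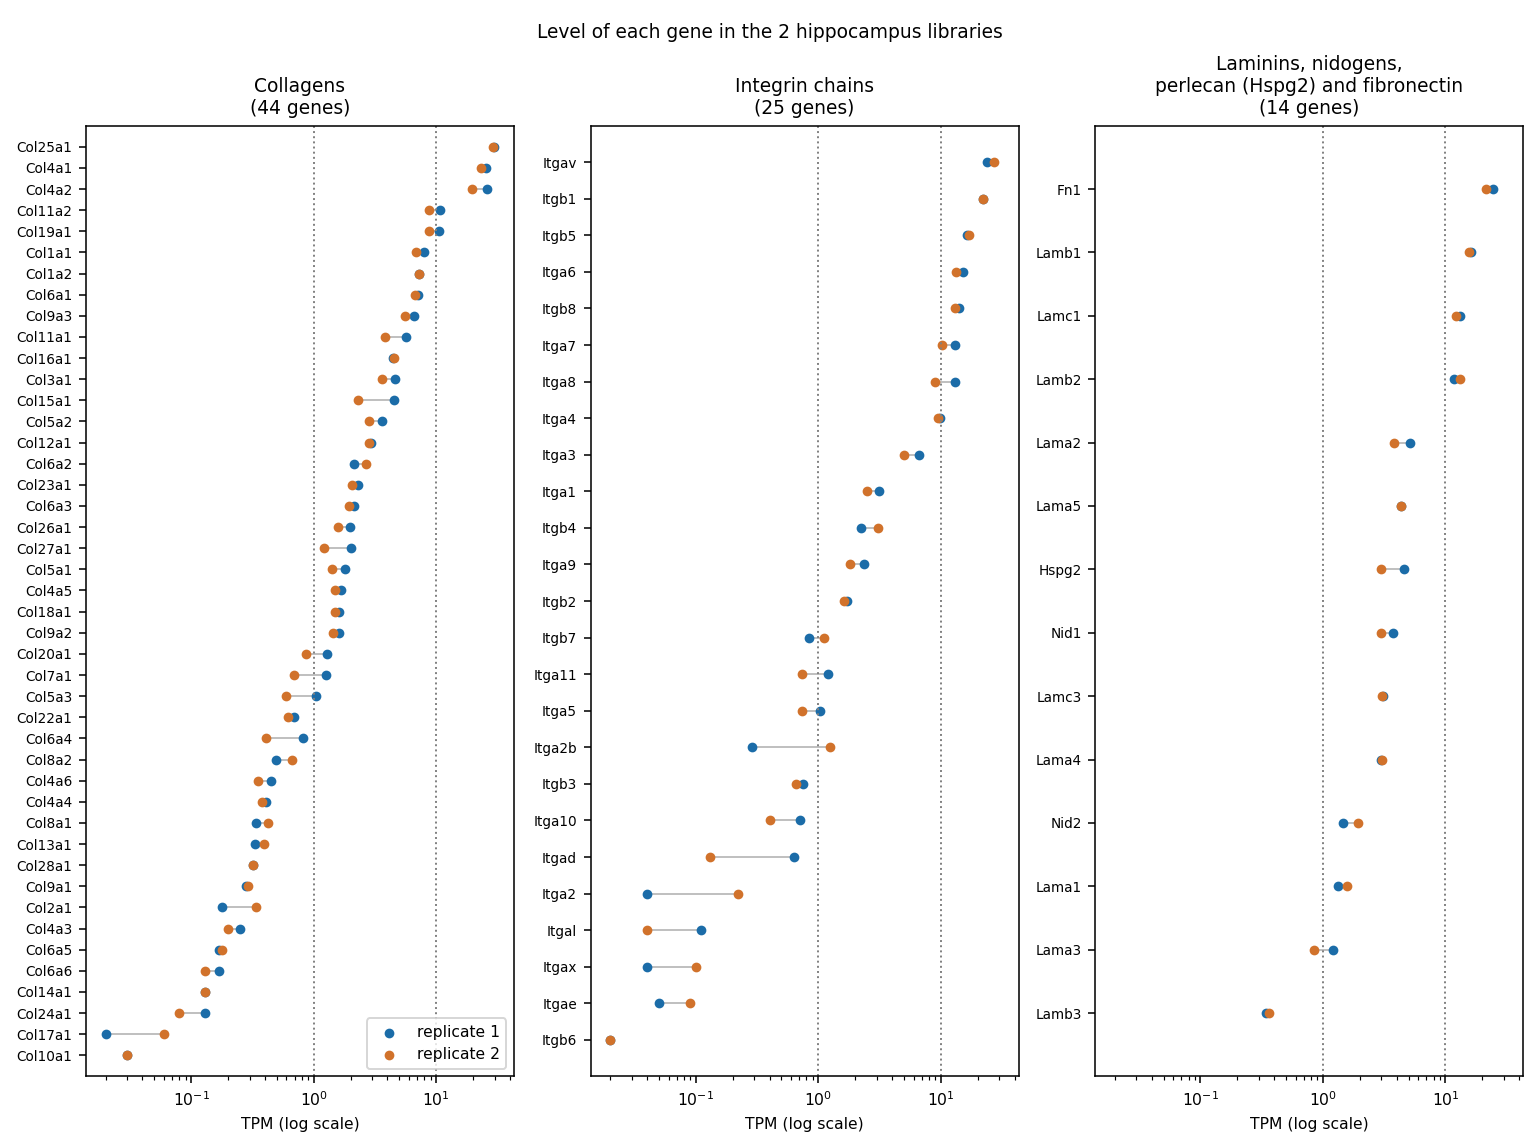
TPM of the genes described here on a log axis, 1 row per gene, sorted by mean within 3 classes; the 2 points of a row are the 2 libraries, and the dotted lines mark 1 and 10 TPM. Collagens reach from 0.03 TPM (Col10a1) to 29.4 TPM (Col25a1), and the points of a gene mostly lie close together except among genes below 1 TPM.

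In RSEM TPM, the collagen with the highest level was Col25a1 (chr3:130131501-130599877), a transmembrane collagen made by neurons whose shed part binds amyloid. Col25a1 stood at 29.9 and 28.9 TPM, 29.4 ± 0.74, the highest of the 84 genes on that scale. Its lower library was above the higher library of Itgav, the next gene. In the kallisto table the order of the collagens turned, with the basement membrane chain Col4a1 at 52.9 and 46.1 TPM above Col25a1 at 47.0 and 44.9 TPM. In expected counts, which are not per length, Col4a2 (3377) was above Col25a1 (2985) in replicate 1. The other transmembrane collagens were far lower. Col23a1, a chain shed from the cell surface, stood at 2.31 and 2.06 TPM, and Col13a1, a collagen of neuromuscular junctions, at 0.33 and 0.39 TPM. Col17a1, the hemidesmosome collagen of skin, had 2 and 3 counts, which a count of 0 allows at this depth.

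Part of the Col25a1 signal fell on a transcript that is not annotated as coding for the whole protein. The coding transcript Col25a1-202 took 45.1% and 47.6% of the gene's TPM, and Col25a1-204, annotated as a target of nonsense-mediated decay, took 36.3% and 38.0%. Both tables gave this order, with 41.0% for Col25a1-202 in replicate 1 of the kallisto table. All transcripts annotated as coding held 60.4 ± 0.14% of the gene.

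Type IV collagen, the network former of the basement membrane, came next. Col4a1 stood at 25.6 and 23.1 TPM, 24.3 ± 1.76, and Col4a2 at 26.1 and 19.7 TPM, 22.9 ± 4.49. These are the chains of vascular basement membranes, assembled in a trimer with more Col4a1 than Col4a2 product. Their ratio was 0.981 in replicate 1 and 1.17 in replicate 2, so the order of the pair differed between libraries. Of the 4 other type IV chains, those known from kidney, lung and eye, only Col4a5 (1.68 and 1.49 TPM) passed 1 TPM. Col4a6 stood at 0.45 and 0.35, Col4a4 at 0.41 and 0.38 and Col4a3 at 0.25 and 0.20 TPM.

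All 6 type IV genes lie in head-to-head pairs, each pair with the starts of its genes next to each other on opposite strands. On chromosome 8, Col4a1 (chr8:11198423-11312826, minus strand) and Col4a2 (chr8:11312805-11449287, plus strand) overlap by 22 bases. On chromosome 1, Col4a4 (chr1:82448423-82586849, minus strand) and Col4a3 (chr1:82586921-82722059, plus strand) lie 71 bases apart. On the X chromosome, Col4a6 and Col4a5 are 1308 bases apart. The stretches between the starts of the first 2 pairs are printed from RefSeq's GRCm38.p6 promoter windows, because the same arrangement goes with mean levels of 24.3 and 22.9 TPM in one pair and below 0.5 TPM in the other. The first is chr8:11312805-11312826 on the plus strand and the second chr1:82586850-82586920 on the minus strand, both 5′ to 3′. Capitals mark GGGCGG on either strand.
Col4a1/Col4a2: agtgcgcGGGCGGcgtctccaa
Col4a4/Col4a3: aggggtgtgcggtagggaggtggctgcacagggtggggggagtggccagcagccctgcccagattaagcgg

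Both stretches are rich in G and C, at 72.7% and 69.0%. The RefSeq window of Col4a2 (250 bases before to 50 after the start) held GGGCGG 3 times and CCAAT once on either strand, and no TATAAA. The window of Col4a4 held none of these motifs. RefSeq windows were matched for 59 of the 84 genes, with 65 windows. GGGCGG was in 55.4% of these against 35.7% of all 32851 windows, CCAAT in 27.7% against 37.4%, and TATAAA in 7.69% against 13.6%. The median GC content was 59.3% against 52.7%. A match describes letters and is no binding site.

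Several other neighbours among the 84 genes had unequal levels. Within 150 kb of each other lay 12 pairs that hold 23 genes: 3 head to head, 6 on the same strand and 3 tail to tail. Itga1 stood at 2.82 ± 0.45 TPM and Itga2, 20995 bases away, at 0.13 ± 0.13 TPM. Col19a1 stood at 9.72 ± 1.3 TPM and Col9a1, at 9205 bases tail to tail, at 0.28 ± 0.01 TPM.

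In RSEM TPM the fibrillar collagens were led by a chain of a minor fibril type. Col11a2 (chr17:34039437-34066685), a type XI chain best known from cartilage and the inner ear, stood at 10.8 and 8.68 TPM. The type I chains, the main fibre collagen of connective tissue, followed, with Col1a1 at 7.9 and 6.86 and Col1a2 at 7.22 and 7.26 TPM. Col11a2 was above both type I chains in each library in RSEM TPM. In the kallisto table Col1a2, at 13.4 and 13.1 TPM, was above Col11a2, at 14.4 and 11.2 TPM, in replicate 2 and on the mean. Col11a1, the partner of Col11a2, stood at 5.66 and 3.79 TPM, and Col3a1, the collagen of vessel walls and soft tissue, at 4.62 and 3.63 TPM. Col2a1, the cartilage collagen, was at 0.18 and 0.34 TPM. Of the 11 fibrillar genes 8 had a mean of at least 1 TPM and none reached 10 TPM.

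Among the collagens that sit on fibrils (the FACIT group and its relatives), Col19a1 was highest. Col19a1, which is expressed by subsets of neurons, stood at 10.6 and 8.8 TPM, Col9a3, a type IX chain, at 6.6 and 5.57 TPM, and Col16a1 at 4.48 and 4.53 TPM. The other type IX chains were lower, with Col9a2 at 1.6 and 1.44 and Col9a1 at 0.28 and 0.29 TPM, so the 3 chains of 1 trimer stood at unequal levels in both libraries. Type VI collagen, a beaded filament around cells, was led by Col6a1 at 7.08 and 6.66 TPM over Col6a2 at 2.15 and 2.66 and Col6a3 at 2.14 and 1.94 TPM. Col6a4, Col6a5 and Col6a6 were all below 1 TPM.

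The collagens that carry glycosaminoglycan chains and release anti-angiogenic fragments were low: Col15a1 stood at 4.52 and 2.32 TPM and Col18a1 at 1.62 and 1.5 TPM. Col15a1 had 272 and 269 counts, and its lower TPM in replicate 2 went with another split of its reads over transcripts, whose part was not tested. Its transcript Col15a1-202 took 50.6% of the gene's RSEM TPM in replicate 1 and 86.2% in replicate 2. The kallisto table had neither change, with Col15a1 at 4.26 and 3.99 TPM and Col15a1-202 at 68.2% and 69.5%. Of the 6 network-forming and other collagens, only Col26a1 (1.99 and 1.58 TPM) had a mean of at least 1 TPM. Col7a1, the anchoring fibril of skin, stood at 1.26 and 0.69 TPM, Col8a2 of endothelial matrices at 0.49 and 0.66, and Col10a1, the collagen of growth cartilage, at 0.03 and 0.03 TPM on 2 counts in each library.

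Laminins were detected as chains of 3 kinds. Among beta chains, Lamb1 stood at 16.1 and 15.4 TPM and Lamb2, the chain of vascular and synaptic laminins, at 11.8 and 13.2 TPM. The gamma chain Lamc1, which most laminins share, stood at 13.1 and 12.3 TPM, and Lamc3 at 3.12 and 3.03 TPM. Lamb3, a chain of epithelial laminin, was below 1 TPM at 0.34 and 0.36 TPM.

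All 5 alpha chains were low and none exceeded 5.17 TPM in a library. Lama2, the chain of muscle and astrocyte basement membranes, stood at 5.17 and 3.82 TPM. Of the chains of endothelial basement membranes, Lama5 stood at 4.33 and 4.35 TPM and Lama4 at 2.97 and 3.01 TPM. Lama1 was at 1.33 and 1.58 and Lama3 at 1.2 and 0.85 TPM. The TPM of all alpha chains summed to 15.0 and 13.6 and that of beta chains to 28.2 and 29.1. In each library the beta chains thus summed higher than the alpha chains, although a trimer holds 1 of each.

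The linkers of the basement membrane were present at single-digit levels. Nid1, a nidogen that joins laminin to type IV collagen, stood at 3.75 and 2.99 TPM and Nid2 at 1.45 and 1.94 TPM. Hspg2, the heparan sulfate proteoglycan perlecan, stood at 4.61 and 2.99 TPM. Fn1 (chr1:71585520-71653200), a plasma and matrix glycoprotein that many integrins bind through an Arg-Gly-Asp (RGD) site, was well above them at 24.4 and 21.3 TPM, 22.8 ± 2.18.

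Fibronectin RNA is spliced at the EDA and EDB exons, each coding for 1 extra fibronectin domain that cellular fibronectin carries and liver-made plasma fibronectin lacks. Both lie on the minus strand: EDA at chr1:71603660-71603929 with 270 bases and EDB at chr1:71613763-71614035 with 273 bases. They are printed here as the units that were in or out of the transcripts, from the GENCODE M21 transcript of the C57BL/6J reference, 5′ to 3′. Capitals mark the exon, with 12 bases of the neighbouring exons on each side in lower case.
Fn1 EDA: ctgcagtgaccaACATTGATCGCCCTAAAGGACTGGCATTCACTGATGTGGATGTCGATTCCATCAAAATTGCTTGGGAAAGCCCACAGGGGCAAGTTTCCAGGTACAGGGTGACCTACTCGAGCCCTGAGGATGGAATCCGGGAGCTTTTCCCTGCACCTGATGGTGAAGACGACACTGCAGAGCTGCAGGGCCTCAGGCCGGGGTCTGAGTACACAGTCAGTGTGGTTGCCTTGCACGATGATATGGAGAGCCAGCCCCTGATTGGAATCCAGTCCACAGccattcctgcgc
Fn1 EDB: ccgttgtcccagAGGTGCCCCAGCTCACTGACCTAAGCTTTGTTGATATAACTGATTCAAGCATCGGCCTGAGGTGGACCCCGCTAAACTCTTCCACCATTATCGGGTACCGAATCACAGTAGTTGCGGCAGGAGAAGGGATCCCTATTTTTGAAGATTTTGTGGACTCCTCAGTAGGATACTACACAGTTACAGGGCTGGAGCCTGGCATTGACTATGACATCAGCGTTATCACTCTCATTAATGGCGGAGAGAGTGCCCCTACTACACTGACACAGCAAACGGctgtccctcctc

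Over the 7 transcripts that span both positions, those with EDA held 36.2% of the summed TPM in replicate 1 and 51.6% in replicate 2. The kallisto table gave 39.3% and 52.0%. EDB was in 36.2% and 30.7%, and in 36.5% and 29.7% by kallisto. Both tables thus placed both exons in a minority to about even share of the transcripts, with EDA higher in replicate 2 and EDB lower there. EDB is annotated in 1 transcript only, Fn1-201, which also holds EDA. The leading transcript of the gene differed between libraries, and Fn1-208, a 1350-base fragment that does not span the exons, took 20.7% and 20.4% of the gene's TPM.

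Of the 17 integrin alpha chains, 8 had a mean of at least 1 TPM and 4 of at least 10 TPM. Itgav (chr2:83724397-83806916), the alpha chain of RGD-binding receptors with several beta partners, stood highest at 24.0 and 27.1 TPM. Itga8, an RGD-binding partner of Itgb1, stood at 12.9 and 8.97 TPM. Itga5, the classic fibronectin receptor chain, stood at 1.03 and 0.73 TPM, lower than Itgav in both libraries by far more than the spread. Itga2b, the platelet chain, was at 0.29 and 1.25 TPM on 15 and 25 counts, too few to place it.

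By TPM, most of the Itga8 level fell on transcripts not annotated as coding. TPM is per length, and the retained-intron transcripts Itga8-204 (1265 bases) and Itga8-202 (488 bases) are shorter than the coding Itga8-201 (5812 bases). The share of reads was not computed. Transcripts annotated as coding held 31.7% and 35.2% of the gene's TPM, and those with retained introns 39.1% and 41.8%. The kallisto table gave 33.6% coding. Total RNA also holds unspliced precursors, whose part in this was not tested.

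All 3 laminin-binding alpha chains exceeded 4 TPM in each library. Itga6 (chr2:71745616-71858416) stood at 15.2 and 13.3 TPM, Itga7 (chr10:128933818-128958282) at 13.1 and 10.3 TPM and Itga3 (chr11:95044474-95076801) at 6.66 and 4.99 TPM. Collagen-binding chains were lower: Itga1, the chain of vessels and stroma, stood at 3.14 and 2.5 TPM, and Itga11, Itga10 and Itga2 had means below 1 TPM. Itga4, which binds VCAM1 and fibronectin, stood at 9.81 and 9.48 TPM, and Itga9, which binds tenascin and other matrix ligands, at 2.37 and 1.81 TPM.

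Laminin-binding alpha chains have alternative exons. In Itga6 the choice of the last exons sets the tail inside the cell, known as the A and B forms. In Itga7 a pair of mutually exclusive exons, known as X1 and X2, sets part of the ligand-binding head. The coding parts of these exons are printed from GENCODE M21 transcripts of the reference, plus strand, 5′ to 3′, to show how the forms differ after a shared start. They lie at chr2:71853534-71853638 (Itga6-201, A), chr2:71855854-71856012 (Itga6-202, B), chr10:128941445-128941576 (Itga7-202, X1) and chr10:128941822-128941941 (Itga7-201, X2). Capitals mark the coding part of the exon and lower case the 12 flanking transcript bases that the forms share.
Itga6 A: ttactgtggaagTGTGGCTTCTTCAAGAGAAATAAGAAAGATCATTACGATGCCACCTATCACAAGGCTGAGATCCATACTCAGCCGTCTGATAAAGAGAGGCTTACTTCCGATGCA
Itga6 B: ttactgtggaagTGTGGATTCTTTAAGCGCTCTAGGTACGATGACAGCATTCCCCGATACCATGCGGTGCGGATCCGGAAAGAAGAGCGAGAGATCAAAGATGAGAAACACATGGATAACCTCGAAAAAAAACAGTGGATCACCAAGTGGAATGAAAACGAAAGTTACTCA
Itga7 X1: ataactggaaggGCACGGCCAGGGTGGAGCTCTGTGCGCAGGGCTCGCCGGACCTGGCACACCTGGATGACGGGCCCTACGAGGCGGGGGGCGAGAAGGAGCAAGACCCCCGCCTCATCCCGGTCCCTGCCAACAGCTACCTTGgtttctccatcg
Itga7 X2: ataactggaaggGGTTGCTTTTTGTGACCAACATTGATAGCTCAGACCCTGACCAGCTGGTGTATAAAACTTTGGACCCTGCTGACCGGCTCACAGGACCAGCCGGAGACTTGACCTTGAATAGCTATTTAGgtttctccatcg

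The shares of Itga6 and Itga7 are within 1 transcript per form and leave out the rest of each gene's TPM. For Itga6 they leave out Itga6-203, annotated as non-coding, with 35.2% and 38.4% of the gene's TPM. For Itga7 they leave out Itga7-203, a retained-intron transcript with 25.8% and 21.2%. The A form of Itga6 held 100% of the TPM of the spanning transcripts in replicate 1 and 98.6% in replicate 2. In the kallisto table it held 84.6% and 67.5%, so the A form led in both tables while the size of its lead depended on the table. For Itga7, the 120-base exon X2 was in 76.1% and 79.8%, and by kallisto in 62.7% and 72.3%. It led in each library and table. For Itga3, the 142-base exon at chr11:95046449-95046590 was in 26.1% and 46.6% of spanning transcripts, and by kallisto in 59.2% and 48.3%, so the leading form could not be named.

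**Figure D2:**
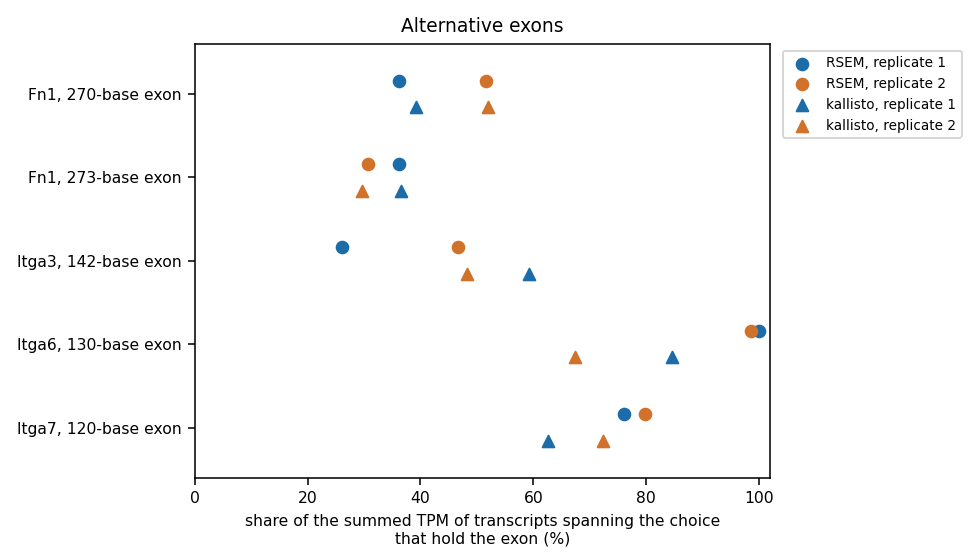
Share of the summed TPM of spanning transcripts that holds each of 5 alternative exons, in percent (Itga7 is shown by its 120-base exon X2 only; Fn1 EDA is the 270-base and EDB the 273-base exon); circles are RSEM values, triangles kallisto values, and colours the 2 libraries. The points of the Itga6 130-base A exon and of Itga7 X2 all lie above 50%, while those of Itga3 lie on both sides of it.

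Beta chains were led by Itgb1 (chr8:128685654-128733200), the partner of most matrix-binding alpha chains, at 22.0 and 22.2 TPM. Of the partners of Itgav, Itgb5 stood at 16.5 and 16.9 TPM and Itgb8 at 14.0 and 13.1 TPM. Itgb8 with Itgav is a receptor that frees active TGF-beta from its latent complex. Itgb4, the partner of Itga6 in hemidesmosomes, stood at 2.23 and 3.08 TPM on 185 and 208 counts. Itgb4-207, annotated as non-coding, took 33.2% and 54.7% of that TPM. TPM is per length, and Itgb4-207 has 521 bases against 5584 for the coding Itgb4-202. The share of Itgb4 reads on Itgb4-207 was not computed. Itgb2, the beta chain of leukocytes and microglia, stood at 1.73 and 1.61 TPM.

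The remaining beta chains were low. Itgb7 of lymphocytes stood at 0.84 and 1.12 TPM and Itgb3, the beta chain of platelets and vessels, at 0.75 and 0.66 TPM. Itgb6, a chain of epithelia, had 1 count in each library, which a count of 0 allows. The 4 leukocyte alpha chains in the choice (Itgad, Itgae, Itgal and Itgax) all had means below 0.5 TPM, the highest being Itgad at 0.63 and 0.13 TPM on 12.7 and 4.28 counts. Itgad and Itgax are neighbours with similar sequences, and the posterior SD of the count, which grows where reads fit several genes, was 11.4% of the Itgad count in replicate 2 and 13.5% of the Itgax count in replicate 1. For the other genes with any such uncertainty (10 genes in all) it was at most 4.61%.

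Ratios within a library do not depend on library scaling. The 12 ratios taken are between chains that assemble together or that are alternatives for the same partner or role. Of these, 7 had the first gene higher in both libraries, 2 the second gene, and 3 differed in order between libraries. Col6a1 over Col6a2 was 3.29 and 2.50 (2.90 ± 0.56), the widest of them. Nid1 over Nid2 was 2.59 and 1.54 (2.06 ± 0.74). Lama5 over Lama4 was 1.46 and 1.45, and Lama2 over Lama4 1.74 and 1.27. Lamb1 over Lamb2 was 1.36 and 1.17, and Itga6 over Itga7 1.16 and 1.29. These ratios all stayed above 1 in RSEM TPM, while in replicate 2 of the kallisto table Lama5 over Lama4 was 0.838 and Lama2 over Lama4 0.824.

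The order of the Itgav receptors depended on the quantity. Itgav over Itgb8 was 1.72 and 2.07 in TPM (1.89 ± 0.25) and 0.877 ± 0.047 in expected counts, which are not per length. Itgb8 over Itgb5 was 0.849 and 0.773 in TPM and 2.07 ± 0.096 in counts. Itgb1 over Itgav was 0.916 and 0.822 in RSEM TPM, and 1.16 ± 0.096 in the kallisto table. Short fragments entered the Itgav level: Itgav-206 (688 bases) and Itgav-205 (463 bases) took 25.8% and 15.3% of the gene's TPM in replicate 1, and 32.0% and 19.5% in replicate 2, while the kallisto table gave Itgav-205 no TPM. In RSEM TPM the ratios near 1 were Col1a1 over Col1a2 at 1.09 and 0.945, Lamb2 over Lamc1 at 0.900 and 1.08, and Col4a1 over Col4a2. In these the order of the chains differed between libraries. Lamb2 over Lamc1 was below 1 in both libraries on expected counts (0.534 and 0.485) and by kallisto (0.719 and 0.911). In the kallisto table Col4a1 over Col4a2 was 1.42, and Col4a1 was at 49.5 TPM.

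**Figure D3:**
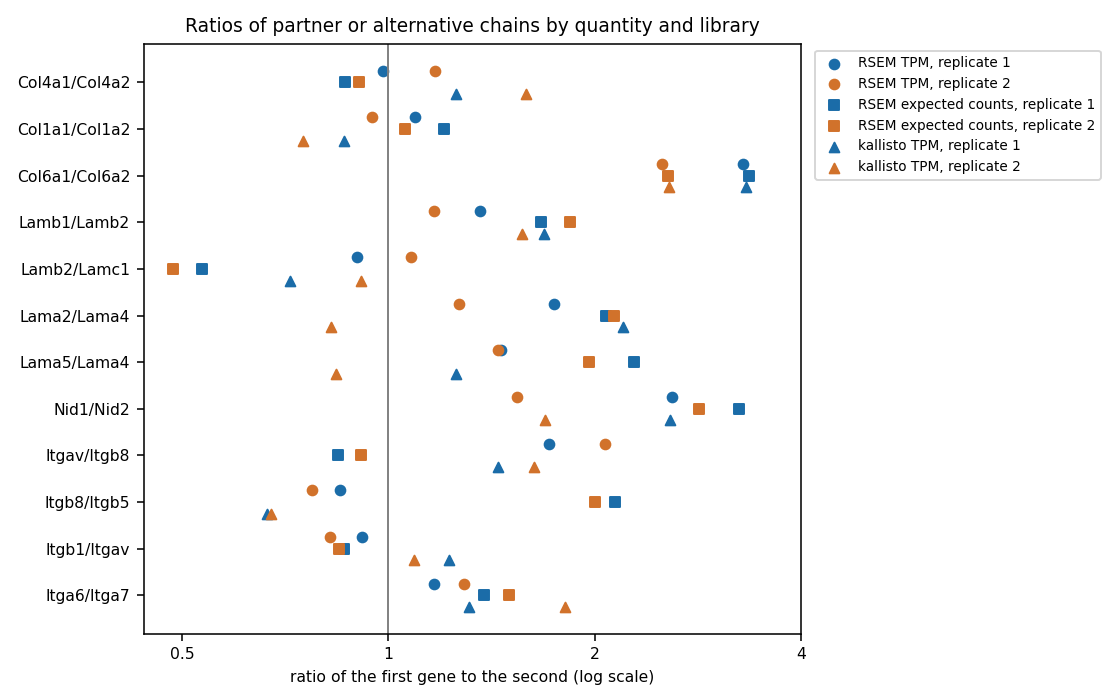
Ratio of the first to the second gene of 12 pairs of partner or alternative chains on a log axis, by quantity (RSEM TPM, RSEM expected counts, kallisto TPM) and library (colour). Col6a1/Col6a2, Nid1/Nid2, Lamb1/Lamb2 and Itga6/Itga7 lie above 1 throughout, while Itgb8/Itgb5 crosses 1 with the quantity.

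The split of reads over transcripts was described for the better expressed genes. Of 22 genes with at least 5 TPM and more than 1 annotated transcript, 16 had a leading transcript with at least 50% of the TPM, beside 68.2% of 9444 protein-coding genes, and 13 did by kallisto. All 22 leaders by mean RSEM share were annotated as coding, while in replicate 1 the non-coding Col19a1-203 led Col19a1 with 45.8% over 41.7%. By kallisto Col19a1-203 also led on the mean, with 42.1% over 35.0% for the coding Col19a1-201. The leader was the same in both libraries for 20 genes, the exceptions being Fn1 and Col19a1, and in both tables for 19, with Col9a3 added. Col4a2-201 took 97.8% and 100% of its gene, Itgb1-201 97.1% and 98.6%, and Col1a1-201 96.8% and 93.9%. Col4a1 was more mixed: Col4a1-201 took 58.5% and 60.2%, and Col4a1-208, annotated as a target of nonsense-mediated decay, 24.9% and 12.9%.

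The 2 libraries were also set side by side gene by gene, with expected counts scaled by TMM (a trimmed-mean scaling of library sizes). The comparison took the 51 of the 84 genes whose mean expected count reached 100. This set differs from the 51 genes with at least 1 TPM: it holds Col5a3 and Col22a1 and leaves out Col26a1 and Col9a2. None of the compared genes was over 2-fold apart, beside 0.778% of 12719 genes. Of the 51 genes, 44 were lower in replicate 2, a share of 86.3%, beside 39.4% of all genes. Their log2 ratio, replicate 2 to replicate 1, had a median of -0.14, against 0.04 over all genes. The range ran from -0.80 for Col5a3, a minor fibrillar chain with 130.0 and 85.0 counts, to 0.34 for Col6a2 with 176 and 255 counts. On deposited TPM, 39 of the 51 were lower (76.5%) beside 53.3% of all genes, and scaled to spike-ins 50 were (all but Col6a2) beside 90.5%. The median of the 51 genes minus that of all genes was -0.18, and it was -0.12 on deposited TPM with a pseudocount of 0.5, -0.11 at a mean count of at least 500 and -0.22 by kallisto. With 1 library on each side these ratios have no replicate check.

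Among the 3 classes the collagens had the lowest median. It was -0.21 with 22 of 25 lower, that of fibrillar collagens -0.33 with 8 of 9 lower, and that of the type IV chains -0.26 with 3 of 3 lower. Laminins with nidogens, perlecan and fibronectin had a median of -0.10 with 13 of 13 lower. Integrins had a median of -0.05 with 9 of 13 lower, and their beta chains -0.01. After Col5a3 the lowest ratios were those of Col11a1 (-0.52), Col20a1 (-0.50), Col27a1 (-0.48) and Lama3 (-0.47). After Col6a2 the highest were those of Itgav (0.10), Itgb5 (0.08), Itgb1 (0.08) and Itga4 (0.07).

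**Figure D4:**
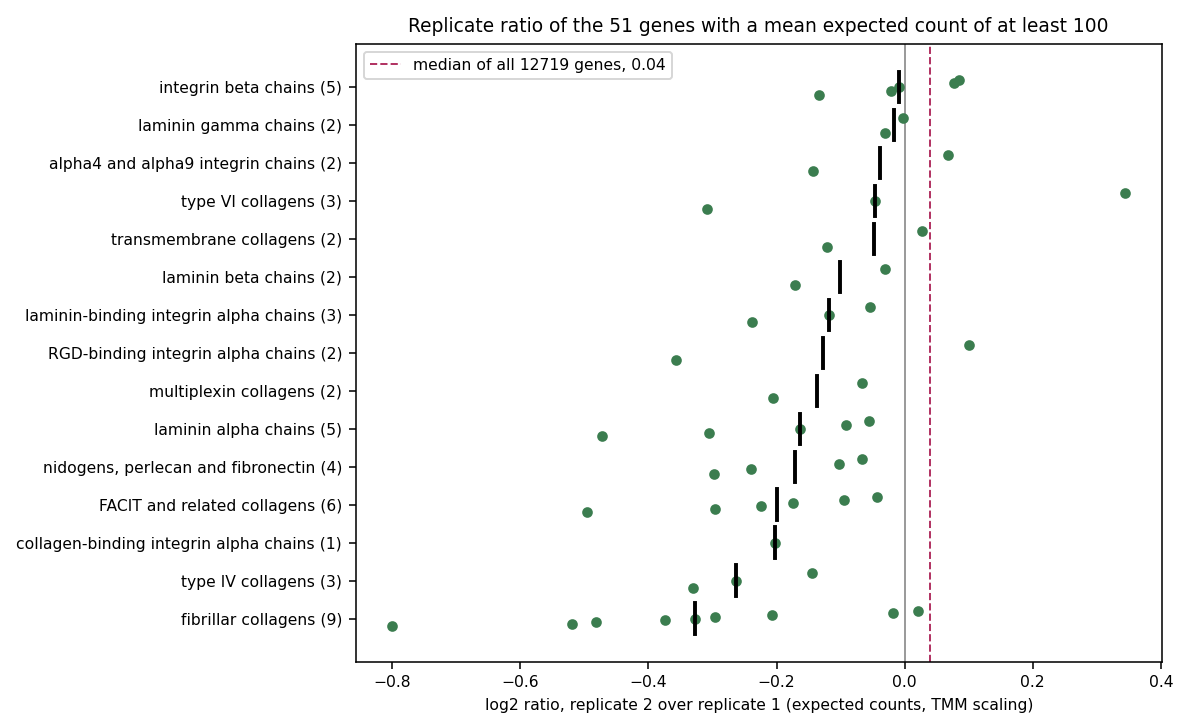
Log2 ratio between the libraries (replicate 2 to replicate 1) from TMM-scaled expected counts for the 51 compared genes, by role; points are genes, black bars medians, and the dashed line the median of all 12719 genes (0.04). Integrin beta chains lie nearest to the dashed line, and fibrillar collagens lie lowest with a median of -0.33.

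The ratio went with transcript length. Over 11900 coding genes in 4 equal groups by the length of the leading transcript, the median log2 ratio was 0.09, 0.06, 0.04 and -0.01 from the shortest to the longest group. The compared matrix and integrin genes had a median length of 6048 bases against 3001, and 39 of them lay in the longest group, with a median of -0.16 and 35 lower. Of all genes in that group 52.7% were lower, and its other genes had a median of -0.01. Endothelial markers had a median of -0.16 with 9 of 10 lower, and a summed level of 137 and 118 TPM. Mural markers had a median of -0.08 (4 of 5 lower; sum 65.7 and 61.5 TPM), while fibroblast markers had a median of 0.20 (0 of 6 lower; sum 82.9 and 103 TPM) and red cell markers of 0.51 (0 of 5 lower; sum 756 and 1119 TPM). Relative to the median of all genes, these 4 lists lay at -0.20, -0.12, 0.16 and 0.47. Other lists also lay apart from it: inhibitory neuron markers at 0.19 (6 of 6 higher), choroid plexus at 0.18 (2 of 2 compared genes higher), myelinating oligodendrocyte at 0.11 (6 of 6 higher) and smooth muscle at -0.14 (2 of 3 lower). No marker of these lists was at 0 in both libraries. The part of length and of cell make-up in the ratio was not tested.

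TPM and scaled counts did not always have the same direction. For 11 of the 51 genes the directions were opposite, beside 19.9% of 12719 genes, 8 of them higher in TPM and lower in counts in replicate 2. Lamb2 stood at 11.8 and 13.2 TPM with a log2 count ratio of -0.17, while the share of its full-length transcript Lamb2-201 was 70.6% and 52.9%. Lama5, Lama4, Nid2, Lama1 and Itgb4 were also among these genes.

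The RSEM and kallisto tables ranked single genes differently. Over the 51 genes with at least 1 TPM the median ratio of kallisto to RSEM level was 1.51, close to 1.57 over 12947 protein-coding genes. Itga9 stood apart at 4.35, with 9.08 TPM by kallisto against 2.09 ± 0.40 by RSEM. Col18a1 and Col23a1 followed at 2.18 each. At the low end lay Lama5 at 0.986, Itgav at 1.16 and Lamb2 at 1.18.

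The wider matrix pathway was present alongside, in lists of chosen genes. Beside the list counts that follow, 58.9% of 22028 protein-coding genes had a mean of at least 1 TPM. Of 21 genes for folding and crosslinking collagen, 18 had at least 1 TPM, led by Sparc, a collagen-binding matrix protein, at 153 and 169.9 TPM, and by the folding enzymes Ppib (97.6 and 96.2 TPM) and P4hb (54.0 and 60.2 TPM). Lox, the crosslinking oxidase, was at 0.30 and 0.31 TPM. Of 22 genes of the adhesion machinery inside the cell, 21 had at least 1 TPM, led by the kinases Ptk2b (312 and 311 TPM), Src (62.5 and 63.7 TPM) and Ptk2 (60.1 and 52.9 TPM). In a list of 21 other matrix receptors and basement membrane partners, 20 did, led by Sdc3 (64.4 and 69.0 TPM) and Agrn (71.3 and 60.7 TPM). That list also holds Lamtor1 (41.7 and 43.7 TPM), which is neither, and its counts and its median log2 ratio include it.

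The leading genes of the matrix typical of brain stood above every collagen. Of 21 brain proteoglycan, tenascin and related genes, 19 had at least 1 TPM, led by Sparcl1 (605 and 639.7 TPM) and the hyaluronan-binding proteoglycans Bcan (165 and 152 TPM) and Ncan (88.3 and 87.9 TPM). Their levels summed to 1082 and 1089 TPM, against 184 and 158 TPM for the 44 collagens. Sparcl1 alone made up the larger part of the brain matrix sum, while Sparc was counted in the folding list. Of 17 proteases and inhibitors, 14 had at least 1 TPM, led by Timp2 (77.9 and 93.6 TPM). Of 12 genes of TGF-beta, its latent-complex proteins and its receptors, 10 did, led by Ltbp4 (26.3 and 20.3 TPM) and Tgfb2 (13.1 and 14.5 TPM). The median log2 ratio between the libraries was 0.05 for the folding list, 0.01 for the adhesion machinery, -0.02 for the other receptors, 0.01 for the brain matrix, 0.07 for the proteases and -0.11 for the TGF-beta list, beside -0.21 for the collagens.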

How the data were processed

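Total RNA-seq of 2 hippocampus libraries was used. Per the labels, 300 ng of RNA went into each, and the ERCC spike-in mix is one for stranded libraries depleted of ribosomal RNA. The tables use mm10 and GENCODE M21, as the deposited text notes say. Per the file headers, the deposited expected count and TPM values per gene and transcript have the columns of RSEM, and a second deposited transcript table gives estimated counts and TPM with the columns of kallisto. The posterior SD of the count is a further deposited column, used to describe shared reads. The aligner is not given in the sources used here, nor is any program version.

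Annotated genes alone entered library sizes. Spike-ins (112913 and 148536 counts) and numbered rows (6 and 2 counts) were left out. A count of 0 allows up to 3 counts, which is 0.0979 and 0.084 counts-per-million, for counting error only. Symbols matched 84 genes, of which 1 enters the counts and sums but is not reported here by itself. Kallisto levels were summed per gene. Log2 ratios used rounded expected counts, TMM factors from edgeR 4.0.16 (R 4.3.3) and a prior count of 0.5, for genes whose mean expected count reached 100. The ratio step was tested on simulated data. Promoter windows came from RefSeq (GRCm38.p6) and exons from GENCODE M21, and protein sequences were not used here. Python 3.11.15, pandas 2.3.3, numpy 2.4.6 and matplotlib 3.10.9 were used.

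The genes and lists were chosen with earlier results of these data known. Named were all genes of at least 10 TPM, the 3 highest of each role, the 5 highest and lowest ratios, all paired chains, the 3 largest differences between tables in each direction and the 3 highest of each pathway list; further genes were named after their values were seen, as were the exon choices and promoter motifs. Alternatives covered DESeq2 1.42.0 size factors, spike-in scaling, deposited TPM, kallisto, other minimums and each replicate left out.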

Additional observations from a re-analysis of the deposited data

How the results depend on the processing

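The number of genes with at least 10 TPM, 14 as reported, was 22 at a minimum of 5 TPM and 25 when TPM was rescaled to nuclear protein-coding genes. The share of all protein-coding genes was not computed under these settings. The count over 2-fold apart between replicates, 0 as reported, was 1 of 51 with spike-in scaling (Col5a3), beside 154 of 12719 over all genes. With no count minimum it was 3 of 84 (Itgad, Itgal and Itgax), beside 6548 of 27847 over all genes. Spike-in scaling shifted the median log2 ratio of all genes to -0.17 and that of the 51 genes to -0.35; a change of scaling moves all genes alike. The other settings gave medians of -0.16 to -0.06, and differences from all genes of -0.22 to -0.11. The share of the collagens was 43.7% on expected counts and 43.6% by kallisto. Of 14 genes with at least 10 TPM, 9 had a leading transcript with at least 50%, and the share over coding genes was not computed at that minimum. The ratio Itgav over Itgb8 was 0.877 on expected counts, Itgb8 over Itgb5 was 2.07 on them, and Itgb1 over Itgav was 1.16 by kallisto, each on the other side of 1; the cause was not tested. With 1 replicate left out, genes with at least 1 TPM numbered 51 to 55, those with at least 10 TPM 13 to 16, the collagen share was 40.9% to 42.9%, ratios with the first chain higher 8 to 9 and leading transcripts with at least 50% 16 to 17. No paired analysis was possible because there was 1 group. The exon alternatives were chosen after seeing the data. With 2 libraries of 1 group, genes below 1 TPM rest on few counts and their order is not settled.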
